A study of Mus musculus with 12 samples.

Results

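The C-type lectin receptors described here are the products of 10 mouse genes, Clec4d, Clec4e, Clec4n, Clec4a1, Clec4a2, Clec4a3, Clec5a, Clec7a, Clec12a and Clec10a. They were chosen by symbol as receptors of myeloid cells and matched by Ensembl identifier, and they are 10 of the 55638 gene identifiers in the count tables. Their rise after injury in these libraries was already known when they were chosen, so their own values in both comparisons are a description. The fits across all genes supply their fold changes and how many lay past a threshold, and no p-value is given for them. Brain tissue of adult male wild-type C57BL/6J mice was used for RNA sequencing in 4 groups of 3 animals each. In the batch of 2018, sham mice underwent the surgery without the impact, and TBI mice received a controlled cortical impact (CCI), a blow to the exposed cortex, with pericontusional tissue collected at 7 days. In the batch of 2022, both groups received the same CCI injury. The labels call the control group only TBI, the study treats it as vehicle-treated, and the other group received zileuton, an inhibitor of 5-lipoxygenase, by intraperitoneal injection in corn oil at 10 mg/kg per day after TBI. The names of the zileuton libraries give 7 days, whereas their source labels give 7, 8 and 9 days. The columns of the 2022 table are numbered 2, 3 and 6 in each group, which the labels do not tie to single mice, so these mice are called by the column number. Each batch holds 1 comparison, and no group was tested against a group of the other batch.

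C-type lectin receptors are membrane proteins of innate immune cells that bind glycans, glycolipids and products of damaged cells. Some of them signal through an activating tyrosine motif, either in their own tail or in the adaptors FcRγ (encoded by Fcer1g) and DAP12 (encoded by Tyrobp), to the kinase Syk and then to the CARD9, BCL10 and MALT1 complex and NF-κB. Others carry an inhibitory motif that recruits phosphatases such as SHP-1. In the brain they are made by microglia, border macrophages and blood-derived myeloid cells, and several of their genes lie side by side on mouse chromosome 6.

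The stretches upstream of the transcription start of 3 receptors are shown because these receptors had few or no counts in sham tissue and because their promoters hold letters of the PU box, the sequence read by PU.1, a transcription factor of myeloid cells. The RefSeq tables (build GRCm38.p6) held promoters of 8 of the 10 genes, and 250 bases upstream of the start are given 5′ to 3′ on the strand of the gene. Clec4d lies on the plus strand (chr6:123261857-123262106), and Clec4e (chr6:123289872-123290121) and Clec7a (chr6:129472780-129473029) lie on the minus strand. Capitals mark GAGGAA or its reverse complement TTCCTC.
Clec4d: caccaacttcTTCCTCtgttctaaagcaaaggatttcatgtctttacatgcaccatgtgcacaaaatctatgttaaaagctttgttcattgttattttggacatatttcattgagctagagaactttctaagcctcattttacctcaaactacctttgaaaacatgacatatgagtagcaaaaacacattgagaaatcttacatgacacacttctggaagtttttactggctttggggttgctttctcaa
Clec4e: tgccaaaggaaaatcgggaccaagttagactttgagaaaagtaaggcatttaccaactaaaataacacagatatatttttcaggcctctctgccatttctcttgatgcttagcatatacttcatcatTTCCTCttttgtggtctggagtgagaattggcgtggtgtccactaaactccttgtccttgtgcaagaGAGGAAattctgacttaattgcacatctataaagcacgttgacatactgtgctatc
Clec7a: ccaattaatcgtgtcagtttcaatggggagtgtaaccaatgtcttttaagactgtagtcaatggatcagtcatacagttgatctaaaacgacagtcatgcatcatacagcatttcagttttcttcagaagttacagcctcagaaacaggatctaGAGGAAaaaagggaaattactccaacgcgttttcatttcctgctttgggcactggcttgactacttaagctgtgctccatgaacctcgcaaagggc
In Clec4d the match ends 235 bases before the start, in Clec4e the 2 matches begin 123 and 56 bases before it, and in Clec7a the match begins 96 bases before it. Over the 250 bases, GAGGAA on either strand was found in 6 of the 8 promoters, those of Clec5a, Clec4a1, Clec4d, Clec4e, Clec12a and Clec7a, but not in those of Clec4a2 and Clec4a3, and in 23.1% of all 27025 promoters of the same length. The AP-1 letters TGANTCA were found in the promoter of Clec12a and in 6.87% of all promoters. The C/EBP letters TTGCNNAA were found in those of Clec4e and Clec12a and in 9.55% of all promoters. None of these motifs contains another, and a match is only a run of letters. Spi1 encodes PU.1 and was named for this reason after its values were seen, so no p-value is given for it. It had 3.97 ± 0.203 CPM in the sham group and 30.0 ± 5.28 after injury (mean ± SD, n = 3 per group, log2 fold change 2.92, SE 0.147). Spi1 is also 1 of the 10 general markers of myeloid cells described below, all of which rose. A part of PU.1 in the rise of the receptors was not tested.

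The libraries held 42929862 to 48684674 counts in 2018 and 27845510 to 35453184 in 2022. CPM stands for counts scaled to a library of 1000000 with TMM factors, which correct for differences in composition between libraries. Gfap, a gene of reactive astrocytes, ranged from 6723 to 10221 counts among sham mice and from 110256 to 126444 among TBI mice, and 68034 to 116453 in the mice of the 2022 batch. All mice are labelled male, but Xist, which is transcribed from the inactive X chromosome, had 856 to 1155 counts in every 2018 library, beside 1042 to 1379 counts of the Y-linked gene Kdm5d. In the 2022 batch Xist had 1 to 6 counts. The 6 libraries of 2018 shared this feature, so no fit without it could be made. Nothing in the labels says whether a library was made from 1 mouse or from pooled tissue, and the p-values measure the spread between these libraries.

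After TBI, the lowest TBI mouse lay above the highest sham mouse for each of the 10 receptors, in counts and in CPM, from 2.92-fold more CPM for Clec10a to 262-fold for Clec7a among those with counts in every sham mouse. All 10 passed edgeR's filter on low counts and had an adjusted p-value under 0.05, a threshold that 28.0% of the 19536 genes tested reached and 16.8% reached as genes higher after TBI. Groups without overlap and higher after TBI were found in 24.6% of all genes tested. In DESeq2 all 10 passed as well, beside 31.9% of genes. As the receptors were chosen with this comparison known, nothing is read from these counts. Their log2 fold changes had a median of 3.20, and all genes tested one of 0.02. In bulk tissue, more cells that carry a receptor and more receptor RNA per cell cannot be told apart.

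**Figure D1:**
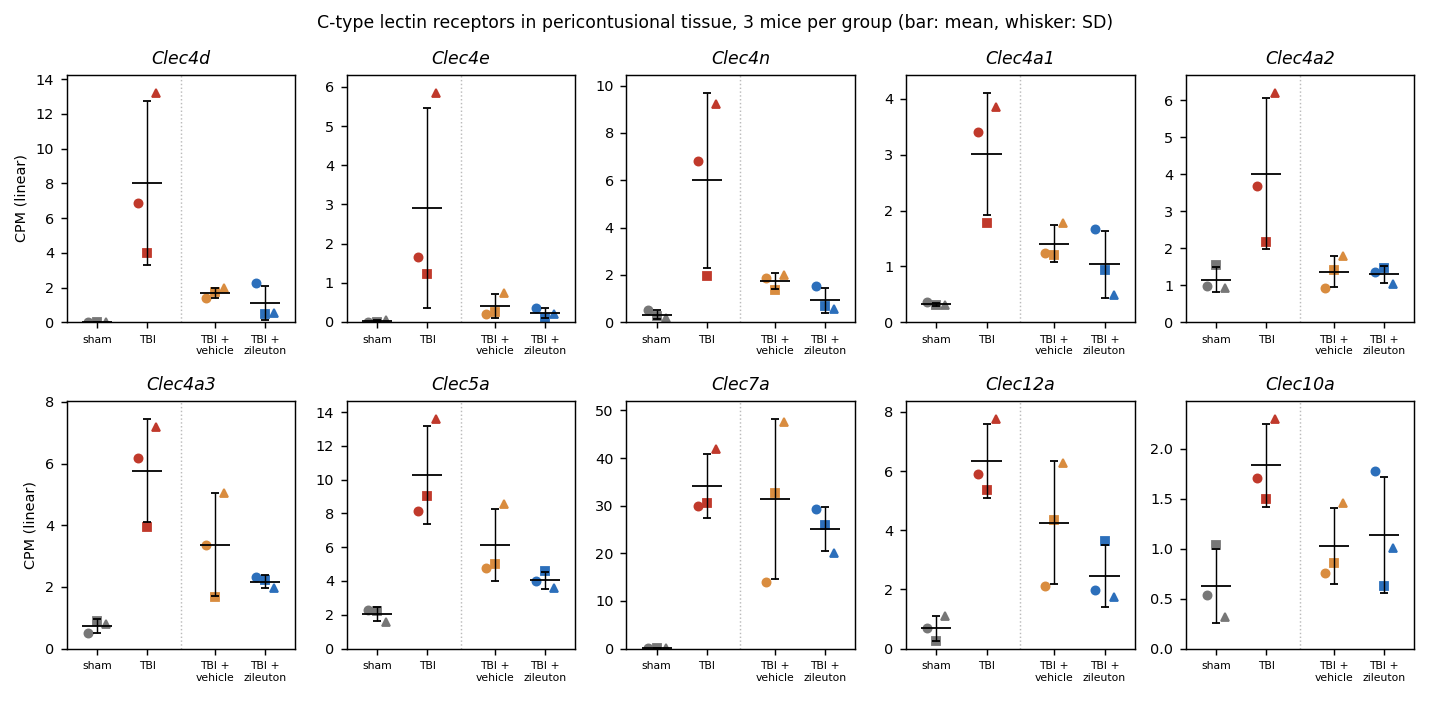
CPM of each of the 10 receptors (linear axis, its own range in each panel) in every mouse, with 3 mice in each of the 4 groups. Circles, squares and triangles are mice 1, 2 and 3 in the sham and TBI groups and mice 2, 3 and 6 in the vehicle and zileuton groups, the bars are means, the whiskers are SDs, and the dotted line separates the batches. In each panel the 3 TBI mice lie above the 3 sham mice, TBI mouse 3 is the highest of its group, and vehicle and zileuton mice overlap in every panel but that of Clec5a.

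Clec4d and Clec4e encode MCL and Mincle, a pair of receptors of glycolipids and of products of dying cells that are coupled to FcRγ. Clec4d (ENSMUSG00000030144) had 0, 0 and 0 counts in the sham group and 337, 193 and 569 in TBI mice 1, 2 and 3. With 3 counts per library standing for a sham count of 0, it was at least 123-fold higher after TBI, and with 6 counts at least 61.7-fold. The larger limit is given because 62.3% to 64.4% of the counts from 1 to 20 in the 2018 libraries were even, so that a count need not be a separate molecule. Clec4e (ENSMUSG00000030142) had 0, 0 and 2 counts in the sham group and 82, 59 and 252 after TBI. The ratio of its summed scaled counts was 193, with an exact 95% interval of 53.2 to 1603 that covers counting error only. The interval takes each count as a separate molecule and is too narrow where counts are not separate. The highest TBI mouse of Clec4e had 4.83 times the CPM of the lowest, the widest spread among the 10 receptors. The fitted log2 fold changes of these genes, 11.5 (SE 1.00) and 7.41 (SE 1.02), depend on the prior count and are no bound. That of Clec4e was 10.1 without sham mouse 3 and 6.40 without TBI mouse 3.

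Clec4n (ENSMUSG00000023349) encodes Dectin-2, a receptor of mannans that is also coupled to FcRγ. It had 24, 12 and 8 counts in the sham group and 335, 95 and 397 after TBI. In CPM this was 0.320 ± 0.190 and 5.99 ± 3.70 (mean ± SD, n = 3 per group), a log2 fold change of 4.22 (SE 0.63). TBI mouse 2 lay far below the other TBI mice and was still above every sham mouse.

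Clec7a (ENSMUSG00000079293) encodes Dectin-1, a receptor of β-glucans with a tyrosine motif in its own tail. It had 6, 10 and 2 counts in the sham group and 1475, 1494 and 1806 after TBI. In CPM this was 0.130 ± 0.0871 and 34.2 ± 6.71 (mean ± SD, n = 3 per group), a log2 fold change of 8.01 (SE 0.317). The TBI mice were close together, and the highest had 1.40 times the CPM of the lowest. Clec7a made up 37.7% to 49.8% of the summed CPM of the 10 receptors after TBI and 0.8% to 3.22% in sham mice.

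Clec5a (ENSMUSG00000029915) encodes MDL-1, which signals through DAP12. It had 104, 102 and 74 counts in the sham group and 402, 440 and 585 after TBI, or 2.02 ± 0.407 and 10.3 ± 2.91 CPM (mean ± SD, n = 3 per group). Its log2 fold change was 2.34 (SE 0.249). Among the 10 receptors it had the most counts in sham tissue.

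Clec4a2 and Clec12a encode receptors with an inhibitory motif, DCIR and MICL. Clec4a2 (ENSMUSG00000030148) had 44, 71 and 44 counts in the sham group and 181, 106 and 267 after TBI, a log2 fold change of 1.81 (SE 0.397). Clec12a (ENSMUSG00000053063) had 32, 12 and 52 counts in the sham group and 290, 261 and 334 after TBI, a log2 fold change of 3.19 (SE 0.423). The groups did not overlap for either gene, and the spread of the TBI mice was wider for Clec4a2, with a coefficient of variation of 50.6%, than for Clec12a, with 19.9%. The median coefficient of variation over all genes tested was 12.3% in TBI mice.

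Clec4a1 and Clec4a3 are relatives of DCIR. Clec4a1 (ENSMUSG00000049037) had 16, 14 and 15 counts in the sham group and 168, 87 and 166 after TBI, a log2 fold change of 3.21 (SE 0.362). Clec4a3 (ENSMUSG00000043832) had 22, 42 and 38 counts in the sham group and 304, 192 and 310 after TBI, a log2 fold change of 2.97 (SE 0.32). TBI mouse 2 was the lowest of its group for both genes. Clec4a1, Clec4a2 and Clec4a3 are similar in sequence, and Clec4a2 overlaps the gene model Gm44132 on the same strand, and reads shared between them would make their counts uncertain.

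Clec10a (ENSMUSG00000000318) encodes MGL1, a receptor of galactose and N-acetylgalactosamine on macrophages and dendritic cells. It had 24, 48 and 15 counts in the sham group and 84, 73 and 99 after TBI, or 0.629 ± 0.37 and 1.83 ± 0.415 CPM (mean ± SD, n = 3 per group). Its log2 fold change of 1.54 (SE 0.429) was the smallest of the 10. It no longer passed the adjusted threshold without sham mouse 1, sham mouse 3 or TBI mouse 3, with log2 fold changes of 1.43, 1.20 and 1.35.

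**Figure D2:**
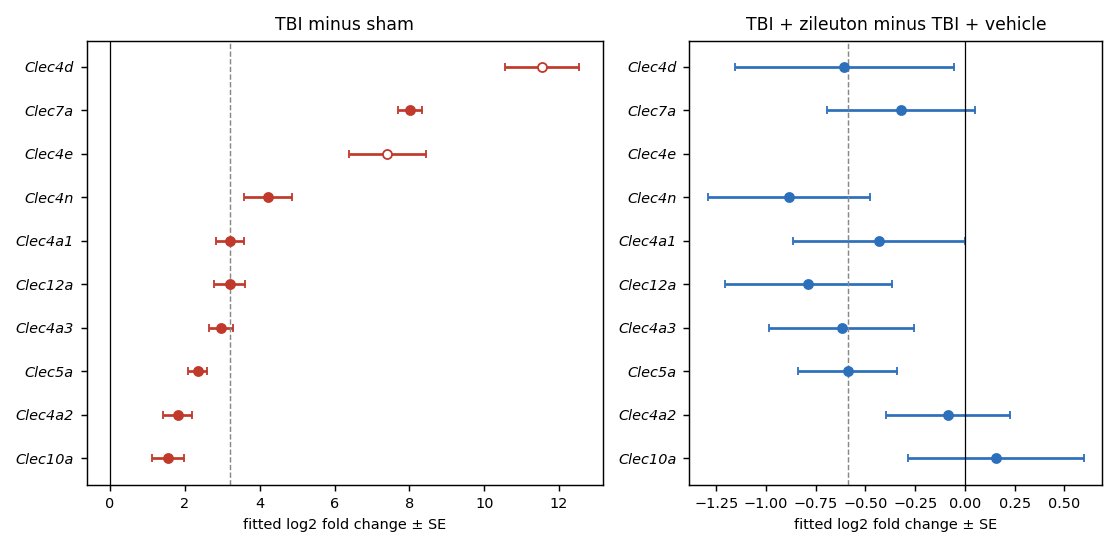
Fitted log2 fold changes with their standard errors, TBI minus sham on the left and zileuton minus vehicle on the right, with receptors ordered by the left panel. Open circles mark Clec4d and Clec4e, whose fitted values rest on 0 and 2 sham counts and are no bound. The dashed lines are the medians of the receptors shown, 3.20 on the left and -0.59 on the right, and Clec4e is missing on the right because its counts were below the filter.

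Per gene length, the order of the receptors differed between sham and TBI tissue. In FPKM, counts scaled by gene length and library total, the highest mean levels in sham mice were those of Clec4a3 (0.542 ± 0.163), Clec5a (0.517 ± 0.102) and Clec4a2 (0.384 ± 0.114; mean ± SD, n = 3 per group). The ranges of neighbours overlapped from Clec4a3 down to Clec7a, at the eighth place with 0.0485 ± 0.0325 FPKM, and Clec4e and Clec4d lay below the range of every other receptor. The highest sham value of Clec7a, 0.0806 FPKM, also lay below the lowest values of the 6 receptors at the top of the order, from Clec4a3 to Clec4a1. After TBI Clec7a was the highest, at 13.2 ± 2.43 FPKM (SD, n = 3), and its range did not overlap that of Clec4d, the next, at 5.06 ± 2.93 FPKM. Clec4d, Clec4a3 (4.41 ± 1.21), Clec4n (4.26 ± 2.59), Clec5a (2.71 ± 0.738), Clec4a1 (1.96 ± 0.682), Clec4a2 (1.39 ± 0.685) and Clec12a (1.16 ± 0.214) followed, and each of these overlapped its neighbours. Clec10a (0.642 ± 0.136) and Clec4e (0.592 ± 0.513) were the lowest, and Clec10a lay below the range of Clec12a while Clec4e, with its wide spread, overlapped Clec10a and was not set apart from it. Clec4d, listed at 0 in every sham mouse, thus stood second after TBI, while Clec4e, the other gene of the pair with few sham counts, stood last.

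The receptors shared much of the order of the TBI mice but differed in how far the mice lay apart. TBI mouse 3 was the highest of its group in all 10. TBI mouse 2 was the lowest in 8 of them, and TBI mouse 1 in Clec5a and Clec7a. The 6 genes Clec4a1, Clec4a3, Clec4a2, Clec4n, Clec4d and Clec4e lie in 1 stretch of chromosome 6, and in all 6 the order was mouse 3, mouse 1, mouse 2. Their summed CPM was 28.6, 15.0 and 45.5 in TBI mice 1, 2 and 3, beside 2.35, 3.00 and 2.25 in sham mice. Clec7a, by contrast, had 30.0, 30.7 and 41.9 CPM in TBI mice 1, 2 and 3. The summed CPM of 7 border macrophage markers followed the order of the stretch, with 64.0, 38.4 and 92.5 in TBI mice 1, 2 and 3, whereas that of 10 pan-myeloid markers was 1168, 1325 and 1710. Pf4, Ms4a7 and F13a1 carried most of the border macrophage sum, with means of 13.9, 20.3 and 18.8 CPM after TBI. The defining genes Cd163 and Lyve1 did not rise (log2 fold changes 0.09 and -0.02). The sum of 5 oligodendrocyte markers had the reverse order of the stretch, with 8650, 10429 and 5717 CPM. The part of border macrophages or of the make-up of the dissected tissue in this order was not tested.

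The neighbours of these genes on chromosome 6 show where counts stop, with the gene order taken from RefSeq on GRCm38.p6. In the stretch from Clec4a1 to Clec4e, Clec4a4 and Clec4b2 had 0 counts in all 12 libraries, and Clec4b1 had 2 counts in 1 sham mouse and 1 count in 1 TBI mouse. A count of 0 allows up to 3 counts in a library. Necap1, next to Clec4a1 on the outer side and broadly expressed, was lower after TBI, with a log2 fold change of -0.29 (SE 0.0712, adjusted p = 0.0155 from edgeR). C3ar1, the receptor of the complement fragment C3a in myeloid cells, which lies beyond it, rose from 91, 105 and 104 counts to 1754, 1621 and 2297 (log2 fold change 4.24, SE 0.202, adjusted p = 6.82e-06 from edgeR). In the stretch from Clec12a to Clec7a, 4 other C-type lectin genes lie between these receptors. Clec9a, a receptor of damaged cells on dendritic cells, rose from 7, 9 and 5 counts to 29, 43 and 20 (log2 fold change 2.07, SE 0.471, adjusted p = 0.0114 from edgeR). Clec1b and Clec1a had log2 fold changes of 0.31 (SE 0.369, adjusted p = 0.582) and 0.78 (SE 0.326, adjusted p = 0.11) and did not pass the threshold. Clec12b had 4 counts in 1 sham mouse, 3 counts in 1 TBI mouse and 0 in the others, too few for a test. On the far sides, Cd69 rose from 2, 0 and 2 counts to 13, 26 and 22 (adjusted p = 0.00627 from edgeR), and Olr1, with 0, 0 and 4 counts in the sham group and 2, 4 and 24 after TBI, was not tested.

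**Figure D3:**
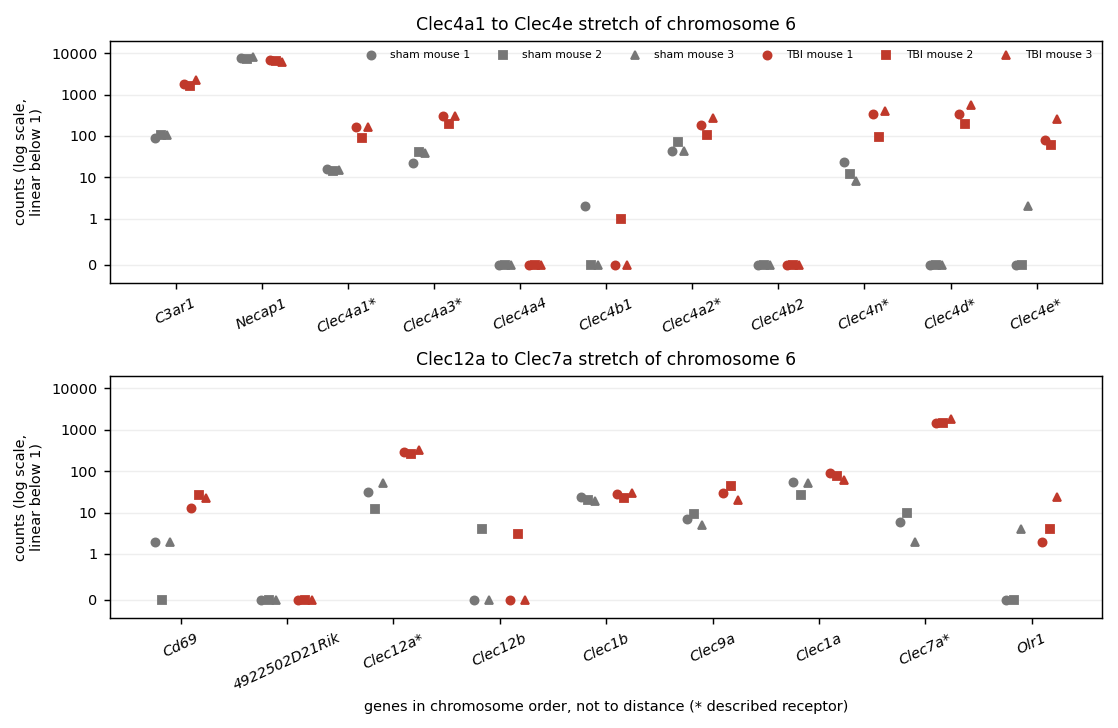
Counts per mouse (log scale, linear below 1) of the genes in 2 stretches of chromosome 6, in chromosome order but not to distance, in 3 sham and 3 TBI mice, with the described receptors marked by an asterisk. In the upper panel Clec4a4 and Clec4b2 stay at 0 between receptors with up to 569 counts after TBI, and in the lower panel Clec7a reaches 1806 counts while Clec1a, next to it, has 62 to 91 after TBI.

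The adaptors and kinases that carry the signal of the activating receptors were higher after TBI. All 12 genes of that list passed the adjusted threshold as higher, beside 16.8% of all genes tested, and their log2 fold changes had a median of 2.46. This list and those below were also chosen with earlier results of these data known, so nothing is read from their counts. Tyrobp, which encodes DAP12, rose from 12.7 ± 2.38 to 121 ± 40.0 CPM (mean ± SD, n = 3 per group; log2 fold change 3.25, SE 0.238, adjusted p = 3.16e-05 from edgeR). Fcer1g, which encodes FcRγ, rose from 7.47 ± 0.68 to 76.9 ± 27.6 CPM (log2 fold change 3.36, SE 0.236, adjusted p = 2.53e-05 from edgeR). Prkcd, the protein kinase C that phosphorylates CARD9, and Lyn, a Src family kinase, had log2 fold changes of 2.36 and 2.57 and also rose (adjusted p = 0.0046 and 1.67e-05 from edgeR). Syk had a log2 fold change of 1.90 (SE 0.137). The summed CPM of the 12 genes was 56.9 to 65.8 in sham mice and 317, 378 and 465 in TBI mice 1, 2 and 3.

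Of 11 genes of the CARD9 complex and NF-κB, 7 rose, none fell and 4 did not pass the threshold, at a median log2 fold change of 0.49. Map3k7, which encodes the kinase TAK1, had a log2 fold change of 0.02 (SE 0.0699) and Traf6 one of 0.26 (SE 0.102), and neither passed. Rela, the p65 subunit of NF-κB, rose by 0.67 on the log2 scale (SE 0.11, adjusted p = 0.00253 from edgeR), and Bcl10 rose by 0.45 (SE 0.12, adjusted p = 0.0233). These 4 were the most highly expressed of the list per gene length. Many cell types of the brain express them, and the counts do not say in which cells they rose. Of the other genes of the list, Card9 itself rose by 1.71 on the log2 scale (SE 0.267). Nfkb2 rose by 2.11 (SE 0.191), Relb by 1.35 (SE 0.161), Nfkb1 by 0.96 (SE 0.0929) and Rel by 0.49 (SE 0.151). Ikbkb and Malt1, at 0.16 (SE 0.119) and 0.21 (SE 0.138), did not pass.

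Of the 3 phosphatases recruited by inhibitory receptors, Ptpn6, which encodes SHP-1 of blood and myeloid cells, rose from 3.46 ± 0.563 to 27.8 ± 5.59 CPM (mean ± SD, n = 3 per group; log2 fold change 3.01, SE 0.187, adjusted p = 1.71e-05 from edgeR). Inpp5d, which encodes SHIP1, rose by 1.53 on the log2 scale (SE 0.109, adjusted p = 2.75e-05 from edgeR). The broadly expressed Ptpn11, which encodes SHP-2, had 215 ± 13.5 and 231 ± 19.3 CPM and did not pass (log2 fold change 0.10, SE 0.0858). Among the ligands, Lgals9, the gene of galectin-9, rose from 4.70 ± 0.298 to 40.3 ± 13.5 CPM (log2 fold change 3.10, SE 0.231, adjusted p = 3.37e-05 from edgeR). Sap130, a nuclear protein that Mincle binds when it leaves dying cells, had a log2 fold change of -0.20 (SE 0.0763, adjusted p = 0.0895) and did not pass.

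Other genes with C-type lectin domains were partly higher after TBI. Of 52 such genes, 31 had enough counts to be tested, 15 rose, none fell and 16 did not pass the threshold, at a median log2 fold change of 1.04. Under limma on log2(FPKM + 1) with low genes left out, 12 of them could be tested and 8 rose. The most highly expressed per gene length were Clec2l, Cd302, Clec2d and Thbd. Cd302 rose by 0.66 (SE 0.119, adjusted p = 0.00383) and Clec2d by 1.51 (SE 0.147, adjusted p = 0.000139) on the log2 scale in edgeR. Clec2l, at 33.3 ± 2.76 and 29.3 ± 3.16 CPM (mean ± SD, n = 3 per group), and Thbd, at 12.2 ± 1.02 and 17.2 ± 7.48 CPM, did not pass (adjusted p = 0.228 each).

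The genes whose profile lay closest to the mean profile of the receptors over the 12 libraries were Cd300a, Aoah, Apobec1, Fcer1g and Cd68. Likeness was the root mean square difference of log2 CPM, centred within each batch, from the mean of the 9 receptors tested in both batches. It was 0.214 for Cd300a, an inhibitory receptor of myeloid cells, 0.222 for Aoah, which deacylates lipopolysaccharide, 0.231 for the RNA editing enzyme Apobec1, 0.232 for Fcer1g and 0.233 for the lysosomal gene Cd68. Single receptors lay farther from that mean, from 0.354 for Clec4a1 to 1.46 for Clec7a, and the median over 16516 genes was 1.39. The difference between sham and TBI mice makes up most of such a profile. Cd300a had 1.10 ± 0.086 CPM in sham mice and 13.5 ± 3.45 after TBI, and 10.3 ± 3.94 and 9.38 ± 2.85 CPM in vehicle- and zileuton-treated mice (mean ± SD, n = 3 per group).

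Markers of the cells that could carry these receptors moved with them. All 10 pan-myeloid markers rose, and their summed CPM was 209 to 239 in sham mice and 1168 to 1710 after TBI. All 10 markers of homeostatic microglia rose, at a median log2 fold change of 1.30, and their sum was 257 to 301 CPM in sham mice and 755 to 1097 after TBI. Of 8 monocyte markers 7 could be tested and 6 rose, among them Fn1, Vcan and Plac8, and Nr4a1 fell, with sums of 196 to 233 and 240 to 282 CPM. Nr4a1 (139 and 75.4 CPM), Fn1 (44.3 and 127 CPM) and Vcan (25.7 and 41.0 CPM in sham and TBI mice) made up most of these sums, and the median log2 fold change of the list was 4.16. Ly6c2, Chil3 and Ccr2 mark inflammatory monocytes and were named after their values were seen, so no p-value is given for them. They were 47.9-, 69.2- and 18.1-fold higher in CPM after TBI, from sham means of 0.0724, 0.0284 and 0.287 CPM. As 3 counts in a sham library stand for up to 0.0666 CPM, the folds of Ly6c2 and Chil3 rest on few counts and are no bound. Of 7 border macrophage markers 5 rose, among them Pf4, Ms4a7, F13a1 and Cbr2, and the defining genes Cd163 and Lyve1 did not pass, with sums of 11.5 to 13.2 and 38.4 to 92.5 CPM. Of 9 neutrophil markers 7 could be tested and all 7 rose, among them S100a9, S100a8, Csf3r and Retnlg, with sums of 4.39 to 5.26 and 48.1 to 104 CPM. Ly6g, which defines neutrophils, had 0, 0 and 0 counts in the sham group and 0, 2 and 6 after TBI.

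Of 7 dendritic cell markers, 6 could be tested, 3 rose and 1 fell, and of 8 T and B cell markers 3 could be tested and 1 rose. Of 8 neuron markers 4 fell and the others did not pass, 5 of 6 astrocyte markers rose, and 3 of 5 oligodendrocyte markers rose. In summed CPM the 10 receptors were 13.7-fold higher after TBI than in sham mice, the neutrophil markers 14.8-fold, the pan-myeloid markers 6.15-fold, the border macrophage markers 5.37-fold and the homeostatic microglia markers 3.20-fold. Clec7a alone made up 37.7% to 49.8% of the receptors' sum after TBI and 0.8% to 3.22% in sham mice. The 13.7-fold value therefore depends much on this gene and does not stand for each receptor. The monocyte sum was 1.23-fold higher, a value set by Nr4a1, Fn1 and Vcan and not by the 4 genes Plac8, Ly6c2, Chil3 and Ccr2. The part of each cell type in the receptors' levels was not tested.

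**Figure D4:**
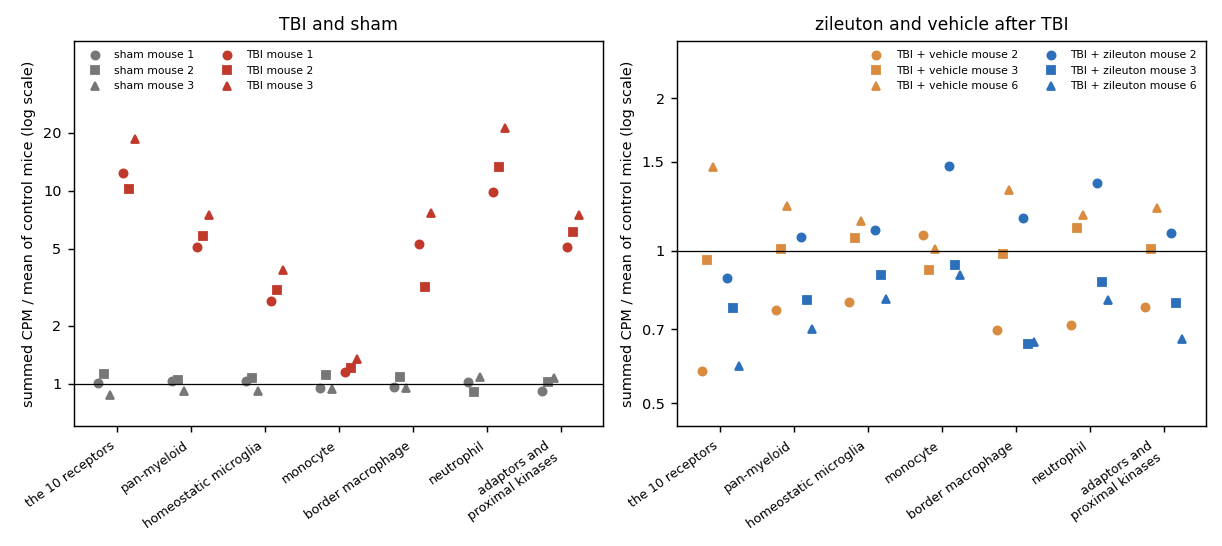
Summed CPM of the 10 receptors and of 6 gene lists in each mouse, divided by the mean of the control mice of the same batch (log scale), with sham and TBI mice on the left and vehicle- and zileuton-treated mice on the right. On the left the receptors lie at a mean of 13.7 times sham, beside 6.15 for the pan-myeloid markers. Clec7a is 37.7% to 49.8% of the receptors' sum after TBI, and the monocyte sum is mostly Nr4a1, Fn1 and Vcan. On the right the 3 mice of each group spread over a range that overlaps that of the other group in every list.

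Zileuton was compared with vehicle in injured mice of the 2022 batch to ask how inhibition of 5-lipoxygenase bears on gene expression after TBI. The mean CPM was lower with zileuton for 9 of the 10 receptors and higher for Clec10a, with groups that overlapped for all except Clec5a. Of the 9 receptors with enough counts to be tested none passed the adjusted threshold, and 0.0% of all 17363 genes did. At an unadjusted p-value under 0.05 there were 1186 genes, 6.83% of those tested, and 1 of the receptors, Clec5a, and with DESeq2 28 genes (0.161%) passed the adjusted threshold, none of them a receptor. The log2 fold changes of the 9 receptors had a median of -0.59, and all genes one of 0.00, and it was -0.23 without vehicle mouse 6. Nothing is read from the count of lower receptors, since the receptors were chosen with these libraries known.

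Clec5a had 139, 176 and 240 counts in vehicle mice 2, 3 and 6 and 121, 146 and 103 in zileuton mice 2, 3 and 6. In CPM this was 6.12 ± 2.12 and 4.05 ± 0.503 (mean ± SD, n = 3 per group), a log2 fold change of -0.59 (SE 0.249). It was the receptor without overlap between the groups, a separation downwards that 7.04% of all genes tested showed, and the lowest vehicle mouse, at 4.77 CPM, lay just above the highest zileuton mouse, at 4.59 CPM.

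Clec7a had 407, 1141 and 1332 counts in vehicle mice and 892, 823 and 575 in zileuton mice, or 31.4 ± 16.8 and 25.1 ± 4.7 CPM (mean ± SD, n = 3 per group). The zileuton mice lay between the lowest and the highest vehicle mouse. The log2 fold change was -0.32 (SE 0.371), and it was 0.10 without vehicle mouse 6 and -0.67 without vehicle mouse 2. On TPM, the authors' value per gene length scaled to the same sum in each library, it was 0.03 with limma.

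Clec4d had 41, 60 and 55 counts in vehicle mice and 69, 16 and 16 in zileuton mice, a log2 fold change of -0.61 (SE 0.55). Zileuton mouse 2 was above every vehicle mouse and the other zileuton mice were below them, and without it the log2 fold change was -1.67. Clec4n had 54, 47 and 56 counts in vehicle mice and 47, 22 and 16 in zileuton mice, a log2 fold change of -0.89 (SE 0.406), and of -1.46 without zileuton mouse 2. Clec4e had 6, 9 and 21 counts in vehicle mice and 11, 3 and 6 in zileuton mice, which is too few for the filter.

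For the other receptors the vehicle and zileuton mice overlapped, and the size of the difference varied. Clec4a1 (log2 fold change -0.43, SE 0.433), Clec4a2 (-0.08, SE 0.312), Clec4a3 (-0.62, SE 0.364) and Clec12a (-0.79, SE 0.421) had lower mean CPM with zileuton. Clec4a3, for example, had 98, 59 and 141 counts in vehicle mice and 71, 71 and 56 in zileuton mice, and Clec12a had 62, 152 and 176 against 60, 116 and 50. Clec10a had 22, 29.8 and 41 counts in vehicle mice and 54, 20 and 29 in zileuton mice, with a log2 fold change of 0.16 (SE 0.442) that was -0.32 without zileuton mouse 2 and below 0 in 5 of 15 alternatives. On TPM its mean was lower with zileuton, at 2.10 ± 1.09 in vehicle and 1.71 ± 0.927 in zileuton mice (mean ± SD, n = 3 per group). There limma gave -0.19 and -0.29 with pseudocounts of 1 and 0.1. Per gene length Clec7a was the highest receptor in both groups, at 40.9 ± 18.7 TPM in vehicle mice and 39.1 ± 9.4 TPM in zileuton mice (mean ± SD, n = 3 per group), and no other receptor reached into its range. Clec5a was next, at 8.64 ± 2.17 and 5.12 ± 1.25 TPM, and Clec4e was the lowest, at 0.347 ± 0.185 and 0.320 ± 0.342 TPM.

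The receptors also shared part of the order of the mice in the 2022 batch. Vehicle mouse 6 was the highest of its group in all 10 receptors, and vehicle mouse 2 the lowest in 7. Among zileuton mice, mouse 2 was the highest in 7 and mouse 6 the lowest in 7. The summed CPM of the 10 receptors was 30.6, 50.5 and 77.1 in vehicle mice 2, 3 and 6 and 46.6, 40.7 and 31.2 in zileuton mice 2, 3 and 6. The pan-myeloid markers had the same order within each group, with sums of 1208, 1598 and 1946 CPM and 1691, 1267 and 1109 CPM, and so did the adaptors and proximal kinases, with 278, 362 and 434 and 389, 282 and 239 CPM. The border macrophage markers had 31.8, 44.9 and 60.1 CPM and 52.8, 29.8 and 30.1 CPM. The neutrophil markers had 25.4, 39.5 and 42.0 CPM and 48.4, 30.9 and 28.5 CPM, with Ly6g at 0 in all 6 libraries. Csf3r alone had means of 29.8 and 31.8 CPM and made up most of this sum, whereas S100a9 had 2.14 and 1.52 CPM and S100a8 0.764 and 0.615 CPM. Vehicle mouse 2 was also the lowest in the sum of 5 oligodendrocyte markers, with 3876 CPM beside 6844 and 8645 in vehicle mice 3 and 6. Whether the content of myeloid cells accounts for the spread of the receptors was not tested.

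None of the 26 adaptor, kinase, CARD9 complex, NF-κB and phosphatase genes passed the adjusted threshold between vehicle- and zileuton-treated mice in edgeR or in DESeq2, 13 had higher and 13 lower log2 fold changes, and 1 reached an unadjusted p-value under 0.05. Fcer1g had 77.2 ± 19.5 CPM with vehicle and 59.7 ± 15.9 with zileuton (mean ± SD, n = 3 per group; log2 fold change -0.37, SE 0.22), and Tyrobp had 112 ± 36.2 and 89.1 ± 21.7 CPM (log2 fold change -0.34, SE 0.248). Of the other C-type lectin genes 25 were tested, none passed in either tool, and 1 reached an unadjusted p-value under 0.05. Clec2d had 7.88 ± 0.856 CPM with vehicle and 5.50 ± 0.856 with zileuton (log2 fold change -0.52, SE 0.162, adjusted p = 0.713 from edgeR). None of the marker lists had a gene past the adjusted threshold in this comparison, with counts at an unadjusted p-value under 0.05 of 2 among pan-myeloid markers, 2 among monocyte markers and 0 among markers of homeostatic microglia, border macrophages and neutrophils. Of the 8 monocyte markers 5 had lower and 3 higher log2 fold changes with zileuton. Chil3 had -1.59 (SE 0.458), Plac8 -1.20 (SE 0.531), Ly6c2 -1.11 (SE 0.395) and Ccr2 -0.32 (SE 0.426).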

How the data were processed

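RNA from brain tissue of 12 mice was sequenced as paired-end libraries of poly(A) RNA, with 3 libraries in each of 4 groups taken from the labels. The submitters' processing notes list HISAT2, featureCounts, Subread and DESeq2 and the build GRCm39, without roles or versions, and the strand setting and the annotation are not given in the sources used here. For 2018 the authors deposited raw counts per gene and FPKM, which equal the counts divided by the library total and a gene length. For 2022 the authors deposited estimated counts, of which 13.7% are not whole, and TPM. Its table holds 223 identifiers that are not Ensembl genes. The plan assumed whole counts, and the estimated counts were rounded. No column of sample values was left out.

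Counts were tested with edgeR 4.0.16 in R 4.3.3 (TMM, filterByExpr, glmQLFit, glmQLFTest), with Benjamini-Hochberg adjustment over all genes tested and a threshold of 0.05. The biological coefficient of variation was 0.174 in the 2018 batch and 0.149 in the 2022 batch. The tests were checked on simulated counts. Alternatives were DESeq2 1.42.0, its size factors, library totals alone, other filters, limma 3.58.1 on log2 FPKM or TPM with a pseudocount of 1 or 0.1 and a mean of at least 0.5, a replicate block, and leaving out each mouse. The receptors and lists were chosen with earlier results of these data known. Named were the 10 receptors, the 4 genes of highest mean FPKM in a list, the 5 closest profiles and neighbours on chromosome 6. Spi1, Ly6c2, Chil3 and Ccr2 were chosen after their values were seen. Cd163, Lyve1, Ly6g, Syk, the remaining genes of the CARD9 and NF-κB list and some genes near 0 in sham mice were also named outside these rules. The 2018 symbols matched 34808 of 35697 identifiers, those of 2022 52081 of 55637. As the annotation used here is of GRCm38 and the counts of GRCm39, no gene positions are given, and promoters carry RefSeq coordinates of GRCm38.p6.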

Additional observations from a re-analysis of the deposited data

How the results depend on the processing

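Among 427 values recomputed under other settings, none past the threshold changed its sign, and 36 moved, counts by over 1.5 times and fold changes by more than their spread. For TBI against sham, 10 counts in every library left 6 receptors to test, 6 of them called, and called 8 of the 20 other C-type lectin genes left to test, in place of 15 of 31. With limma on log2(FPKM + 1), with a pseudocount of 0.1, and with no filter, 8 of 12, 9 of 12 and 9 of 49 of the other C-type lectin genes tested were called, and the median log2 fold change of the receptors was 1.53 with a pseudocount of 1 and 1.27 without a filter, since a pseudocount understates the change of low genes. Leaving out 1 mouse at a time called 9 to 10 receptors, 18 to 20 of the 26 signalling genes, 13 to 15 other C-type lectin genes and 3848 to 4956 genes in all, and the receptors' median was 3.01 to 3.42. Without a filter, limma did not call Clec4e and Clec4a2 (0.62 and 0.75 on the log2 scale), and Clec10a did not pass in 4 of 13 settings. For zileuton against vehicle, the count of genes past the adjusted threshold was 28 with DESeq2, 4 without a filter, and 4 and 3 with limma at pseudocounts of 1 and 0.1, in place of 0, and it was 0 with every mouse left out. No receptor passed under any alternative, and the receptors' median was -0.70 to -0.23 with 1 mouse left out. Why limma and DESeq2 differed from edgeR here was not tested.

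The labels do not say whether mice of the same replicate number were paired. The correlations of same-numbered mice, as deviations from their group means, were -0.0228, -0.0944 and -0.0326 in the 2018 batch and -0.280, 0.0628 and -0.282 in the 2022 batch. Those of differently numbered mice were -0.104 to 0.130 and -0.0730 to 0.313. With 3 mice per group these values cannot settle whether mice were paired. With the numbers as a replicate block, 4337 genes, 9 receptors (all but Clec10a), 19 signalling genes and 14 other C-type lectin genes were called after TBI, and 0 genes with zileuton. Depth limits Clec4d and Clec4e in sham mice, and Clec4e in the 2022 batch.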
